A study of Mus musculus with 12 samples.

Results

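TGF-beta receptors and SMADs are the 3 receptor genes *Tgfbr1*, *Tgfbr2* and *Tgfbr3* and the 7 SMAD genes *Smad1* to *Smad7*. The list was set by name and not by any measured value, but with earlier results of these data known. All 10 had a probe set with 1 gene symbol, 1 probe set each, among the 19937 genes on the arrays. RNA came from E14.5 mouse fetal liver, and 3 populations were profiled on 4 GeneChip Mouse Gene 1.0 ST arrays each, labelled as replicates. Megakaryocytes (MEG) were cultured from KIT-positive progenitors and were enriched with beads on CD41. Erythroblasts (ERY) were purified with beads on Ter119 and were not cultured. Hematopoietic stem and progenitor cells (HSPC, labelled as hematopoietic stem cells) lacked lineage antigens, were sorted on Sca1 and were not cultured either. The labels name no strain, genotype or drug treatment. Lineage and culture cannot be told apart where MEG were compared with ERY or HSPC.

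TGF-beta binds the type II receptor TGFBR2, which recruits and phosphorylates the type I receptor TGFBR1, and TGFBR1 in turn phosphorylates SMAD2 and SMAD3. SMAD1 and SMAD5 carry the signal of bone morphogenetic proteins (BMPs), SMAD4 is the partner shared by both branches, and SMAD6 and SMAD7 are inhibitors. TGF-beta is known as a brake on hematopoietic stem cell division, megakaryocytes are known to load it into platelets, and BMP signals are known to act in stress erythropoiesis of the mouse.

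The arrays carried the markers of their labels. All 11 measured megakaryocyte markers were called higher in MEG than in HSPC, all 13 erythroblast markers were called higher in ERY than in HSPC, and of 14 stem and progenitor markers 10 were called lower in MEG and 11 in ERY. A gene was called at a change over 2-fold and an FDR under 5% in limma, adjusted over all 19937 genes. Markers of other cells were not evenly spread. The median of 14 hepatocyte markers was 5.34 to 5.97 on the MEG arrays, 10.07 to 11.13 on the ERY arrays and 8.15 to 9.95 on the HSPC arrays (log2 units here and below). The corresponding medians were 6.66 to 7.53, 8.13 to 9.09 and 6.29 to 6.86 for 15 macrophage markers in MEG, ERY and HSPC, and 5.86 to 6.29, 6.16 to 6.68 and 6.48 to 7.24 for 15 endothelial markers. Stromal markers (15 genes) had medians of 5.58 to 5.86 in MEG, 6.52 to 6.59 in ERY and 5.99 to 6.44 in HSPC, and 11 mast cell markers had medians of 4.67 to 5.52 over all arrays, with 2 of them, *Cpa3* and *Hdc*, called lower in both MEG and ERY than in HSPC. Olfactory receptor genes (1016), taken as a measure of background, had a 95th percentile of 6.10 in MEG, 5.98 in ERY and 5.65 in HSPC. The HSPC arrays were graded, with 91.0% of the variance within HSPC on a single axis and correlations of 0.981 between arrays 1 and 2, 0.976 between arrays 2 and 3, 0.994 between arrays 3 and 4 and 0.908 between arrays 1 and 4. Values are therefore also given without arrays 1 and 2 or without arrays 3 and 4 for several genes whose call or size depended on them. Among the MEG arrays, array 4 had a raised background, with an olfactory median of 5.70 against 3.98 to 4.75 on the other 11 arrays.

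The members were mostly highest in HSPC and lowest in ERY. The mean was highest in HSPC for 9 of 10 members (*Tgfbr1* was highest in MEG, as were *Smad2*, *Smad4* and *Smad7* under ribosomal centring) and lowest in ERY for 8 of 10 (*Tgfbr3* and *Smad6* were lowest in MEG). The full order HSPC above MEG above ERY was seen in 7 members, against 15.0% of all genes. In bulk RNA, fewer cells of a type and less RNA per cell cannot be told apart. Expression of 6 members lay above the 95th percentile of the olfactory receptor genes on all 12 arrays. On MEG array 4, where that percentile was 7.35, *Tgfbr3*, *Smad1*, *Smad6* and *Smad7* lay below it (6.38, 6.20, 6.76 and 6.64).

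**Figure D1:**
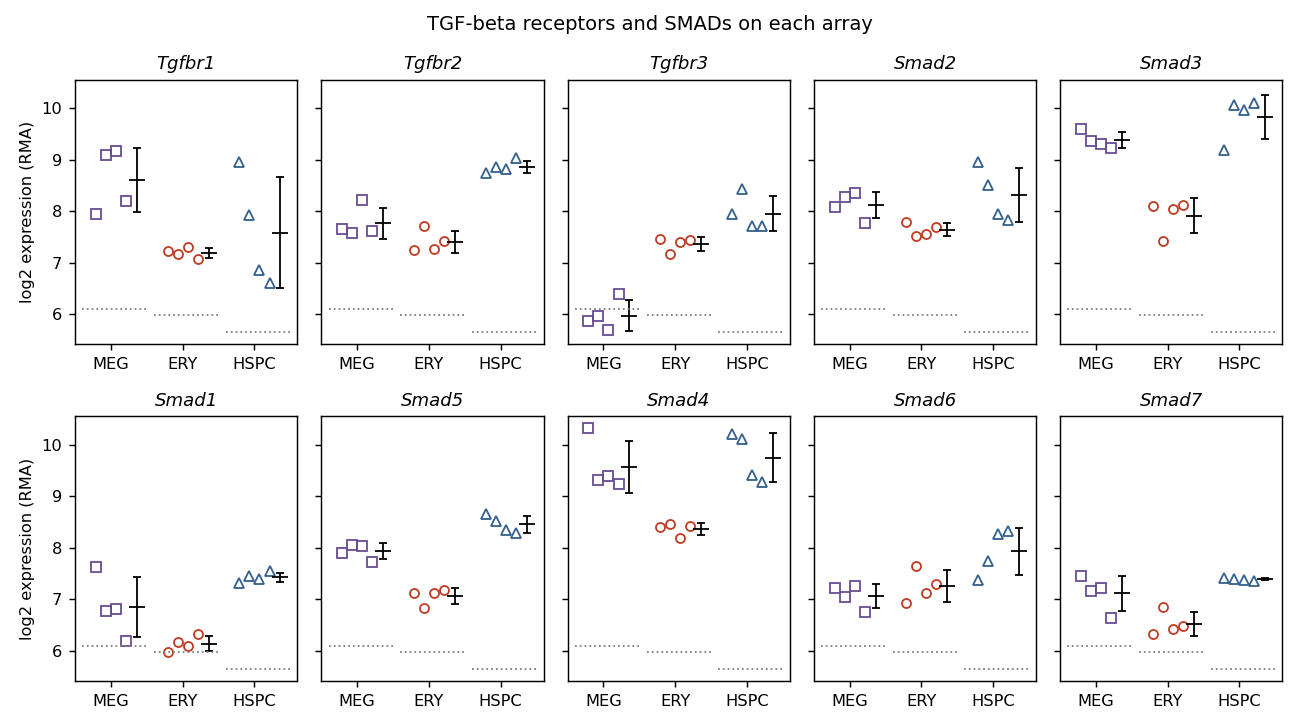
Level of each member on each array (vertical axis, log2 RMA value), with MEG as squares, ERY as circles and HSPC as triangles, arrays 1 to 4 from left to right, and the mean ± SD (n = 4) beside them; the dotted line is the 95th percentile of olfactory receptor genes in that population. *Smad3*, *Smad4* and *Smad5* in ERY lie below every HSPC array, *Tgfbr3* in MEG lies around the dotted line, and *Tgfbr1* spans 6.61 to 8.95 on the HSPC arrays.

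In ERY against HSPC, no member was called higher and 5 were called lower: *Tgfbr2*, *Smad1*, *Smad3*, *Smad4* and *Smad5*. Over all genes, 8.35% were called higher and 12.3% lower. Without the fold threshold, 9 members were lower at an FDR of 5%, against 20.1% of genes, and for 8 members every ERY array lay below every HSPC array, against 20.9% of genes. The exception at an FDR of 5% was *Tgfbr1*. The median change was -1.08 over the members and 0.03 over all genes.

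In MEG against HSPC, the receptors *Tgfbr2* and *Tgfbr3* were called lower and no member was called higher, against 11.4% and 8.77% of genes. Without the fold threshold, 4 members were lower at an FDR of 5% (*Tgfbr2*, *Tgfbr3*, *Smad5* and *Smad6*), against 20.7% of genes, and the same 4 did not overlap between the arrays, against 17.4% of genes. The median change was -0.49 over the members and -0.02 over all genes. Both comparisons share the HSPC arrays, so the values of a member in them are not independent.

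MEG were compared with ERY directly. *Tgfbr1*, *Smad3* and *Smad4* were called higher in MEG, and *Tgfbr3* was called lower in MEG, against 8.75% of genes called higher and 7.77% called lower. At an FDR of 5% with no fold threshold 6 members were higher in MEG, against 12.7% of genes, and 4 members did not overlap with MEG higher, against 15.2% of genes. The median difference was 0.65 over the members and -0.02 over all genes.

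**Figure D2:**
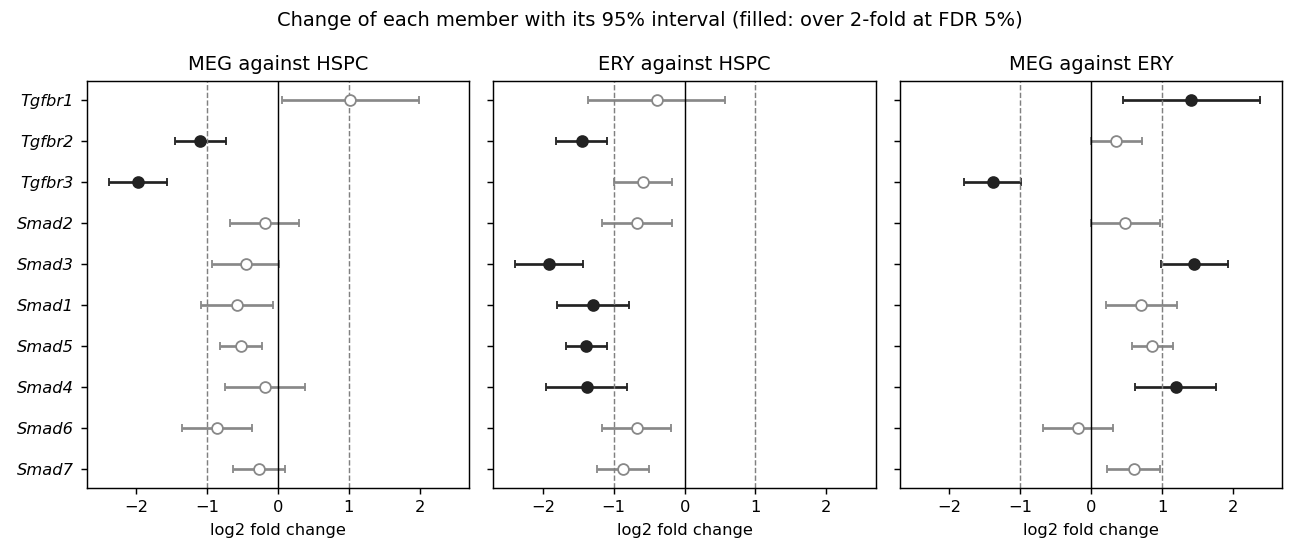
Log2 fold change of each member (horizontal axis) with its 95% interval from limma in the 3 comparisons; filled points are past 2-fold at an FDR of 5% and dashed lines mark 2-fold. In ERY against HSPC all 10 points lie left of 0, and in MEG against HSPC *Tgfbr1* is the only point to the right of 0, where *Smad2*, *Smad4* and *Smad7* also lie under ribosomal centring.

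Start regions are shown for 4 of the 5 members called lower in ERY. These 4 had a RefSeq start site among the windows used here and were called together. No window of *Smad4*, also called lower, was used. Windows of 250 bases ending just before a start site were taken from RefSeq (GRCm38.p6), for 6 of the 10 members and 9 windows in all. Shown 5′ to 3′ on the strand of the gene, with each CpG in capitals, are the windows of *Tgfbr2* (chr9:116175364-116175613, minus strand), *Smad1* (chr8:79399429-79399678, minus strand), *Smad3* (chr9:63757995-63758244, minus strand) and *Smad5* (chr13:56702760-56703009, plus strand).
Tgfbr2: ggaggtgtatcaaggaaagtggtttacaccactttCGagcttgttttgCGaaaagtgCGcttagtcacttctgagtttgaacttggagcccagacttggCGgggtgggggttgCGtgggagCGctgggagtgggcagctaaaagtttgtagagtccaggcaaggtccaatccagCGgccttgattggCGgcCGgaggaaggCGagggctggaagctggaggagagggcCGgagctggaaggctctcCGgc
Smad1: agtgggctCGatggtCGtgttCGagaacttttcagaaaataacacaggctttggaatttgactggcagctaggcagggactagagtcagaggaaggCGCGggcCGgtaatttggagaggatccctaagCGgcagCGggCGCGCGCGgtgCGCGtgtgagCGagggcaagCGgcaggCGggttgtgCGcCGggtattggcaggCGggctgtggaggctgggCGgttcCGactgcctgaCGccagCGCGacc
Smad3: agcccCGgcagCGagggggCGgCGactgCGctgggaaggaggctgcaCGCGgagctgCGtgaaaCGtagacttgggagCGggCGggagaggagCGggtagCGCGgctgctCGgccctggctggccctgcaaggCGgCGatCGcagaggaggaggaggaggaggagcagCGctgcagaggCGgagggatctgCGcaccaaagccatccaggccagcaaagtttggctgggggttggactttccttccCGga
Smad5: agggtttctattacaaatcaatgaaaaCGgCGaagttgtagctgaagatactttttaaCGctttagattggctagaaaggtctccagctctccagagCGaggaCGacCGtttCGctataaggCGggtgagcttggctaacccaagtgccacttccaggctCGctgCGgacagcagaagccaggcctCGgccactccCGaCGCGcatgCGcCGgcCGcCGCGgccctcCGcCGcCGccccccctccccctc
These windows held more CpG sites than the median window, and so did some windows of members not called lower in ERY. *Smad6* held 27 CpG sites, and *Tgfbr1* 29 in 1 window and 3 in the other. *Smad1* held 25 CpG sites at 63.6% GC, *Smad3* 22 at 69.2% GC, *Smad5* 22 at 60% GC and *Tgfbr2* 12 at 58.4% GC. Over all 32851 windows the medians were 6 CpG sites and 52.4% GC, and as many CpG sites as in *Smad1* were present in 10.7% of windows, as in *Smad3* or *Smad5* in 14.8% and as in *Tgfbr2* in 33.5%. Exact words were searched on both strands for GATA factors (AGATAA or AGATAG or TGATAA or TGATAG, in 26.5% of all windows), ETS factors (CCGGAA, 12%), RUNX factors (TGTGGT, 14%) and SMADs (the palindrome GTCTAGAC, 0.167%; the shorter CAGAC, 42.2%). Of the 4 windows shown, only that of *Tgfbr2* held a match, a single CAGAC at position -160 from the start site, which says only that the other words are not in these letters. *Smad5* has 2 further windows at other start sites, and the one at chr13:56703418-56703667 held a GATA word at -244 and a CAGAC at -21.

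The ligand-binding receptor *Tgfbr2* was lower in both lineages. Its level was 7.66, 7.57, 8.22 and 7.61 on the MEG arrays, 7.24, 7.71, 7.27 and 7.42 on the ERY arrays, and 8.74, 8.85, 8.81 and 9.03 on the HSPC arrays. HSPC lay above both lineages on every array, and MEG and ERY overlapped. *Tgfbr2* fell 2.14-fold in MEG (log2 fold change -1.09, SE 0.17, limma adjusted p = 0.000279) and 2.73-fold in ERY (-1.45, SE 0.17, adjusted p = 2.51e-05) relative to HSPC. Centring the arrays on ribosomal protein genes left the MEG change at -0.65 (adjusted p = 0.00848), under 2-fold. MEG array 3, the highest for *Tgfbr2*, also had the highest macrophage marker median of the MEG arrays (7.53, against 6.66 to 6.96 on the others). It also had their highest mast cell marker median (5.52). ERY, lowest for *Tgfbr2* by mean, had the highest macrophage medians (8.13 to 9.09), and the part of these cells was not tested. Without MEG array 3 the MEG change was -1.25 (adjusted p = 6.6e-05). The difference of MEG from ERY was 0.35, with a 95% interval of -0.01 to 0.71, and was not called.

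*Tgfbr3* encodes betaglycan, a co-receptor that presents TGF-beta to TGFBR2 and also binds inhibin. It was 5.86, 5.96, 5.69 and 6.38 on the MEG arrays, 7.45, 7.16, 7.41 and 7.44 on the ERY arrays, and 7.95, 8.42, 7.72 and 7.72 on the HSPC arrays. The 3 populations did not overlap, and the MEG values lay around the background of the olfactory receptor genes, which 2 of the 4 MEG arrays exceeded on their own 95th percentile. *Tgfbr3* fell 3.94-fold in MEG relative to HSPC (-1.98, SE 0.19, adjusted p = 8.43e-06) and was 2.62-fold lower in MEG than in ERY (-1.39, SE 0.19, adjusted p = 9.52e-05). With each MEG array raised to its own background limit where it lay below it, the differences are at least 3.23-fold from HSPC and at least 2.15-fold from ERY. In ERY against HSPC the change was -0.59 (SE 0.19, adjusted p = 0.0284), under the fold threshold. Most hepatocyte markers were also lower in MEG: 11 of 14 were called lower than in HSPC and all 14 lower than in ERY, against 11.4% and 7.77% of all genes. Of 15 endothelial markers 5 were called lower and 0 higher in MEG than in HSPC, and 3 lower and 1 higher than in ERY. Of 15 macrophage markers 0 were called lower and 1 higher in MEG than in HSPC, and 6 lower and 1 higher than in ERY. *Alb*, the main secreted protein of hepatocytes, averaged 5.78 ± 0.42 in MEG, 12.77 ± 0.20 in ERY and 11.50 ± 0.70 in HSPC (SD, n = 4). Between ERY and HSPC the order differed, with *Tgfbr3* higher in HSPC and 12 of 14 hepatocyte markers called higher in ERY. The part of these cells in the level of *Tgfbr3* was not tested.

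**Figure D3:**
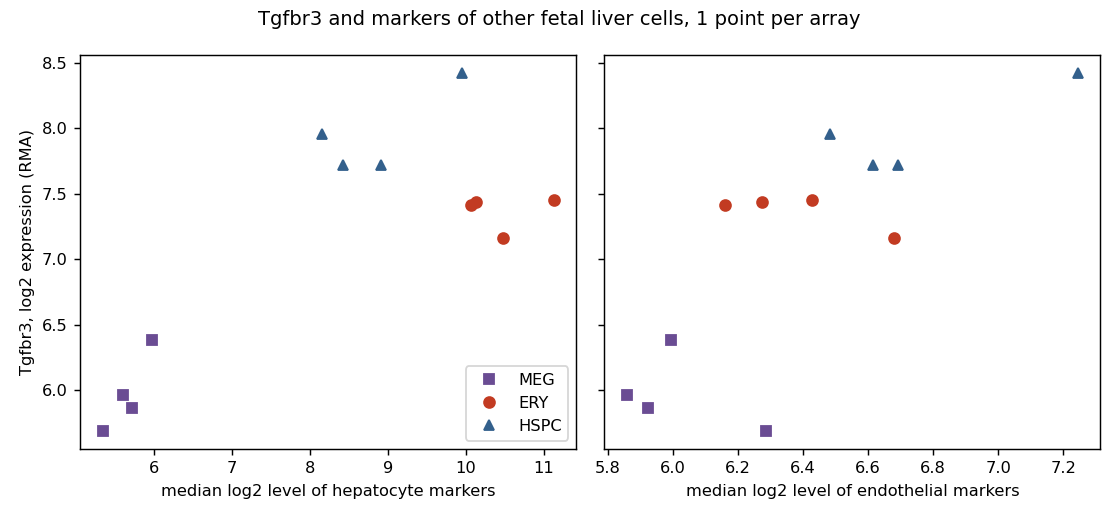
*Tgfbr3* on each array (vertical axis, log2 RMA value) against the median log2 level of the hepatocyte markers (left) and of the endothelial markers (right), 1 point per array. The 4 MEG arrays lie lowest for *Tgfbr3* and on the hepatocyte axis and overlap ERY on the endothelial axis, and ERY lie to the right of HSPC on the hepatocyte axis while below them on the *Tgfbr3* axis.

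*Tgfbr1*, the type I kinase, had the largest SD of the members in MEG and in HSPC (0.62 and 1.07) and the smallest in ERY (0.099). It was 7.95, 9.09, 9.18 and 8.19 on the MEG arrays, 7.22, 7.17, 7.30 and 7.06 on the ERY arrays, and 8.95, 7.92, 6.87 and 6.61 on the HSPC arrays. MEG lay above ERY on every array, and the HSPC arrays overlapped both, with arrays 1 and 2 averaging 1.70 above arrays 3 and 4. *Tgfbr1* was 2.67-fold higher in MEG than in ERY (1.42, SE 0.44, adjusted p = 0.0316). That call was lost without any single ERY array (difference 1.37 to 1.45, adjusted p between 0.0603 and 0.0754). It was also lost without MEG array 2 (1.25, adjusted p = 0.0898) and without MEG array 3 (1.23, adjusted p = 0.0924). The SE of 0.44 was estimated from all 12 arrays, with HSPC (SD 1.07) among them. With 1 pair of HSPC arrays left out, *Tgfbr1* stayed called higher in MEG than in ERY at an unchanged 1.42. The limma adjusted p was then 0.00136 (pair 1 and 2 out) or 0.0044 (pair 3 and 4 out). Against HSPC the change was 1.02 in MEG (95% interval 0.06 to 1.98, adjusted p = 0.0965) and -0.40 in ERY (-1.36 to 0.57, adjusted p = 0.568), and neither was called. The MEG value turned on the HSPC arrays: it was 1.87 (adjusted p = 0.000612) without HSPC arrays 1 and 2, 1.47 (adjusted p = 0.00396) without array 1 alone, and 0.17 (adjusted p = 0.757) without arrays 3 and 4. Without HSPC arrays 3 and 4 the ERY value was -1.24 and was called lower (adjusted p = 0.0301), and without arrays 1 and 2 it was 0.45.

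Of the SMADs that TGFBR1 phosphorylates, *Smad3* was lower in ERY and *Smad2* was not called. *Smad3* was 9.59, 9.37, 9.30 and 9.23 on the MEG arrays, 8.09, 7.41, 8.03 and 8.12 on the ERY arrays, and 9.19, 10.06, 9.97 and 10.10 on the HSPC arrays. Every ERY array lay below every array of the other populations, and MEG overlapped HSPC only through HSPC array 1. *Smad3* fell 3.77-fold in ERY relative to HSPC (-1.92, SE 0.22, adjusted p = 2.54e-05) and was 2.75-fold higher in MEG than in ERY (1.46, SE 0.22, adjusted p = 0.000236). In MEG against HSPC it differed by -0.46 (95% interval -0.93 to 0.02, adjusted p = 0.128).

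*Smad2* averaged 8.12 ± 0.26 in MEG, 7.64 ± 0.13 in ERY and 8.31 ± 0.52 in HSPC (SD, n = 4). All ERY arrays lay below all HSPC arrays, by -0.67 in the means (SE 0.23, adjusted p = 0.0366), under the fold threshold, which it passed without HSPC arrays 3 and 4 (-1.09). In MEG the change from HSPC was -0.19 (95% interval -0.68 to 0.30) and the difference from ERY was 0.48 (-0.01 to 0.98). HSPC arrays 1 and 2 averaged 0.84 above arrays 3 and 4, and the MEG value took a positive sign without arrays 1 and 2 (0.23), without array 1 (0.02), with ribosomal centring (0.25) and with array weights (0.32).

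*Smad4*, the partner common to the TGF-beta and BMP branches, was 10.32, 9.31, 9.39 and 9.25 on the MEG arrays, 8.41, 8.47, 8.20 and 8.42 on the ERY arrays, and 10.20, 10.11, 9.42 and 9.28 on the HSPC arrays. ERY lay below all other arrays, while MEG and HSPC overlapped over nearly their whole range. *Smad4* fell in ERY relative to HSPC (log2 fold change -1.38, SE 0.26, adjusted p = 0.00125) and was 2.29-fold higher in MEG than in ERY (1.19, SE 0.26, adjusted p = 0.00402). Without HSPC arrays 1 and 2 the ERY change was -0.97 (adjusted p = 0.0120), and without MEG array 1 the difference of MEG from ERY was 0.94 (adjusted p = 0.0066), both under 2-fold. The change in MEG against HSPC was -0.19 (95% interval -0.76 to 0.38), and its sign turned with ribosomal centring (0.26) and without HSPC arrays 1 and 2 (0.22).

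The SMADs of the BMP branch, *Smad1* and *Smad5*, were both called lower in ERY. *Smad5* was 7.91, 8.06, 8.05 and 7.73 on the MEG arrays, 7.13, 6.84, 7.12 and 7.19 on the ERY arrays, and 8.66, 8.53, 8.36 and 8.29 on the HSPC arrays. The 3 populations did not overlap on any array, with MEG between the other populations. *Smad5* fell 2.62-fold in ERY relative to HSPC (-1.39, SE 0.13, adjusted p = 6.09e-06). The change in MEG was -0.52 (SE 0.13, adjusted p = 0.00877) and the difference of MEG from ERY was 0.86 (SE 0.13, adjusted p = 0.000297), each past the FDR and under 2-fold.

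*Smad1* was 7.63, 6.78, 6.81 and 6.20 on the MEG arrays, 5.98, 6.17, 6.10 and 6.33 on the ERY arrays, and 7.33, 7.45, 7.40 and 7.54 on the HSPC arrays. The ERY values lay near the background, with 3 of 4 arrays above their own 95th percentile of olfactory receptor genes, and MEG spanned the gap between ERY and HSPC. *Smad1* fell 2.44-fold in ERY relative to HSPC (-1.29, SE 0.23, adjusted p = 0.000893), and with ribosomal centring the change was -0.93 (adjusted p = 0.0113). In MEG it differed from HSPC by -0.58 (SE 0.23, adjusted p = 0.0760) and from ERY by 0.71 (SE 0.23, adjusted p = 0.0400), and neither was called.

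Neither inhibitory SMAD was called in any comparison. *Smad6*, which acts mainly on BMP receptors, was 7.22, 7.04, 7.26 and 6.76 on the MEG arrays, 6.94, 7.66, 7.13 and 7.30 on the ERY arrays, and 7.38, 7.74, 8.28 and 8.34 on the HSPC arrays. MEG lay below HSPC on every array, and ERY overlapped both. The change from HSPC was -0.86 in MEG (SE 0.23, adjusted p = 0.0102) and -0.68 in ERY (SE 0.23, adjusted p = 0.0357), and MEG differed from ERY by -0.19 (adjusted p = 0.639). Without HSPC arrays 1 and 2, *Smad6* was called lower in both MEG (-1.24) and ERY (-1.05), and without HSPC array 1 alone it was called lower in MEG (-1.05, adjusted p = 0.00135).

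*Smad7*, which blocks TGFBR1 and recruits ubiquitin ligases to it, was 7.45, 7.17, 7.22 and 6.64 on the MEG arrays, 6.33, 6.85, 6.42 and 6.49 on the ERY arrays, and 7.41, 7.40, 7.39 and 7.36 on the HSPC arrays. The HSPC arrays were nearly equal (SD 0.02), ERY lay below all of them, and MEG overlapped both. *Smad7* differed from HSPC by -0.87 in ERY (SE 0.17, adjusted p = 0.00158), under 2-fold, and by -0.27 in MEG (95% interval -0.64 to 0.10), which ribosomal centring turned to 0.17. MEG exceeded ERY by 0.60 (SE 0.17, adjusted p = 0.0194).

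For the members called in at least 1 comparison, the genes with the most similar profile over the 12 arrays were listed, as a description of arrays that share 3 populations. The nearest to *Tgfbr2* were *Napsa* (Pearson r = 0.990), *Spi1* (0.988), the gene of the myeloid factor PU.1, and *Rftn1* (0.987). *Smad3* was nearest to *Patz1* (0.986), *Anxa11* (0.982) and *Sh3bp1* (0.979), *Smad5* to *Cep68* (0.990), *C2cd2* (0.987) and *Pam* (0.982), and *Smad1* to *Trpc4ap* (0.992), *Fam168b* (0.967) and *Lbh* (0.958). *Smad4* was nearest to *Maml3* (0.983), *Map4k4* (0.981) and *Usp3* (0.973), and *Tgfbr1* to *Rasa2* (0.988), *Csgalnact2* (0.985) and *Fubp3* (0.975). For *Tgfbr3* they were *Rpl23a* (0.969), *Hnf4a* (0.959), a hepatocyte transcription factor on the hepatocyte list, and *Gfra1* (0.958). Unlike 12 of 14 hepatocyte markers, *Hnf4a* was not called higher in ERY than in HSPC (8.52 against 8.94). Within the family, *Smad1* and *Smad7* had a correlation of 0.939 and *Smad3* and *Smad5* of 0.907, whereas *Tgfbr1* and *Tgfbr3* ran opposite at -0.53.

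The other genes of the pathway were read from 6 lists with 97 measured genes. In MEG against HSPC 18 were called higher and 12 lower, in ERY against HSPC 12 higher and 16 lower, and in MEG against ERY 23 higher and 7 lower. As shares of the 97 genes these are 18.6% higher and 12.4% lower in MEG (8.77% and 11.4% of all genes), 12.4% higher and 16.5% lower in ERY (8.35% and 12.3% of all genes), and, in MEG against ERY, 23.7% higher and 7.22% lower (8.75% and 7.77% of all genes). The same all-gene shares apply to each single list. The median changes were -0.01, 0.02 and -0.05, close to those of all genes.

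Ligands were mostly not called, with 1 of 18 lower in MEG, 1 of 18 lower in ERY, and 1 of 18 higher in MEG than in ERY. *Tgfb1*, the main TGF-beta isoform of blood cells, averaged 12.25 ± 0.22 in MEG, 9.93 ± 0.09 in ERY and 11.78 ± 0.51 in HSPC (SD, n = 4). It fell in ERY relative to HSPC (-1.85, adjusted p = 3.21e-05), was higher in MEG than in ERY (2.32, adjusted p = 3.92e-06), and differed by 0.48 in MEG against HSPC, which was not called. *Gdf3*, a nodal-related ligand, was the ligand called lower in MEG (adjusted p = 0.0001). Its MEG mean of 5.65 was below background, and the difference from 6.96 in HSPC is at least 1.64-fold.

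The genes that store and release latent TGF-beta differed most between the lineages. Of 11 measured, 4 were called higher and 1 lower in MEG relative to HSPC, none higher and 3 lower in ERY, and 6 were higher and none lower in MEG than in ERY. *Thbs1*, encoding thrombospondin, an activator of latent TGF-beta, was 13.20, 13.29, 13.23 and 13.23 on the MEG arrays, 8.52, 8.98, 6.98 and 7.28 on the ERY arrays, and 8.95, 10.12, 8.82 and 8.95 on the HSPC arrays. MEG lay far above both other populations on every array (log2 fold change 4.03 against HSPC, adjusted p = 1.45e-05, and 5.30 against ERY). In ERY *Thbs1* was called lower than in HSPC with overlapping arrays (-1.27, adjusted p = 0.0301), a call lost without ERY array 3 or 4 or HSPC array 2. Leaving out HSPC arrays 1 and 2 also lost that call (-0.94, adjusted p = 0.141). *Ltbp1*, which tethers latent TGF-beta to the matrix, averaged 11.13 ± 0.15 in MEG, 6.54 ± 0.25 in ERY and 7.23 ± 0.33 in HSPC (SD, n = 4), a rise of 3.90 in MEG relative to HSPC (adjusted p = 2.52e-08). *Lrrc32* (GARP, which displays latent TGF-beta on the surface of platelets) rose by 3.26 in MEG relative to HSPC (adjusted p = 1.98e-06). *Nrros*, which holds latent TGF-beta on myeloid cells, fell in both lineages relative to HSPC (-1.62 in MEG, adjusted p = 0.00043, and -3.22 in ERY, adjusted p = 1.41e-06). Its ERY mean of 6.06 was near background, with 2 of 4 ERY arrays above their own limit. *Furin*, the protease that cleaves the TGF-beta precursor, fell in ERY (-1.65, adjusted p = 0.00218).

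**Figure D4:**
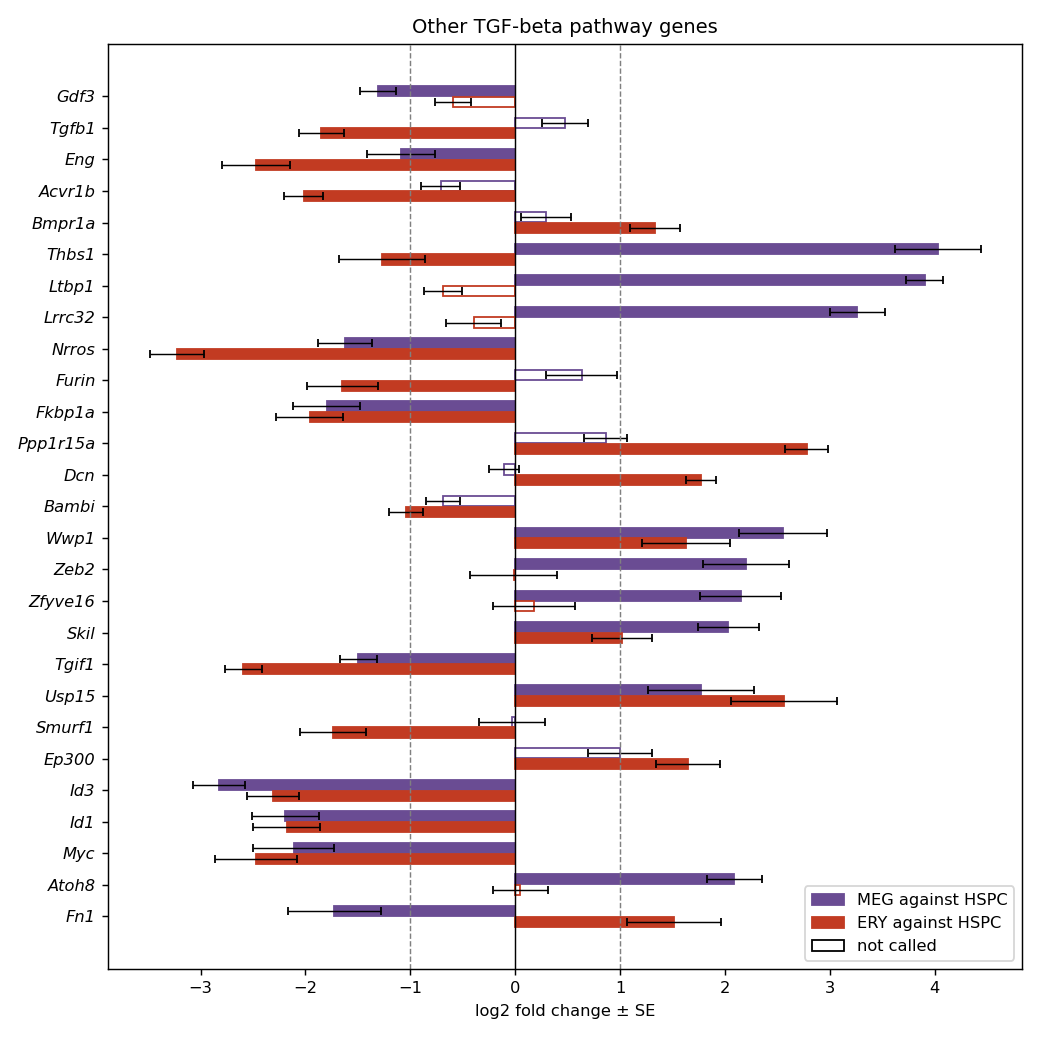
Log2 fold change ± SE (horizontal axis) relative to HSPC of the pathway genes named by the rule in MEG (upper bar) and ERY (lower bar), filled where called. *Thbs1*, *Ltbp1* and *Lrrc32* reach 4.03, 3.90 and 3.26 in MEG. Filled below 0 in both lineages are *Nrros*, *Eng*, *Fkbp1a*, *Tgif1*, *Id1*, *Id3* and *Myc*, and filled above 0 in both are *Wwp1*, *Skil* and *Usp15*. The bars of *Gdf3* and *Id3* in MEG, *Smurf1* and *Dcn* in ERY and *Bmpr1a* in both rest on a level below background.

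Among 12 other receptors of the family with *Smad9*, 1 was called lower in MEG, and 1 higher and 2 lower in ERY. *Acvr1b*, an activin type I receptor, fell in ERY (-2.02, adjusted p = 4.23e-06). *Eng*, encoding endoglin, a co-receptor of stem cells and endothelium, fell in ERY (-2.47, adjusted p = 7.41e-05). In MEG *Eng* differed by -1.09 with overlapping arrays (adjusted p = 0.0203). That call was lost without any 1 of 5 arrays (MEG 1 and 4, HSPC 2, 3 and 4, adjusted p between 0.0548 and 0.0618). It was also lost on leaving out HSPC arrays 3 and 4 (-0.79, adjusted p = 0.177). The receptor called higher in ERY, *Bmpr1a*, a BMP type I receptor, averaged 5.93 in ERY and 4.60 in HSPC, below the background limit in both, so no change is given for it. Of 15 endothelial markers 4 were called lower and 3 higher in ERY than in HSPC, and their part in *Eng* was not tested.

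Of 10 inhibitors outside the nucleus, 1 was called lower in MEG, and 2 higher and 2 lower in ERY. *Fkbp1a*, whose product holds type I receptors inactive, fell in MEG (-1.80, adjusted p = 0.000856) and in ERY (-1.96, adjusted p = 0.000401). *Ppp1r15a*, whose product takes part in dephosphorylating TGFBR1, rose in ERY (2.78, adjusted p = 6.88e-07). *Dcn* encodes decorin, a matrix proteoglycan that binds TGF-beta. It averaged 7.07 in ERY and 5.30 in HSPC, which is below background (adjusted p = 1.57e-06 for the difference of means), and was at least 2.63-fold higher in ERY. *Dcn* is also on the stromal list, of which 2 of 15 genes (*Dcn* itself and *Reln*) were called higher and 1 (*Pdgfrb*) lower in ERY, and the part of stromal RNA was not tested. *Bambi*, a pseudoreceptor, fell in ERY (-1.04, adjusted p = 0.000287). Its change was under 2-fold without ERY array 1 (-0.95), HSPC array 3 (-0.99) or HSPC arrays 3 and 4 (-0.94). It was also under 2-fold with quantile normalization (-0.83) or ribosomal centring (-0.68).

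SMAD regulators and partners moved in both directions, with 10 of 30 called higher and 4 lower in MEG relative to HSPC and 8 higher and 4 lower in ERY. In MEG the rule named *Wwp1*, a ubiquitin ligase (2.55, adjusted p = 0.000518), *Zeb2*, a repressor that binds SMADs (2.20, adjusted p = 0.00127), *Zfyve16*, an endosomal SMAD anchor (2.15, adjusted p = 0.000952), and *Skil*, encoding the repressor SnoN (2.03, adjusted p = 0.000178). In ERY it named *Tgif1*, a SMAD corepressor that fell (-2.59, adjusted p = 3.18e-07), *Smurf1*, a ubiquitin ligase for SMAD1 and SMAD5 that fell at least 2.94-fold to a level below background (5.80 in ERY against 7.54 in HSPC, adjusted p = 0.000876), *Usp15*, a deubiquitinase that rose (2.57, adjusted p = 0.00159), and *Ep300*, a coactivator that rose (1.65, adjusted p = 0.000987). Without HSPC arrays 3 and 4 these rises were smaller, at 1.68 for *Wwp1*, 1.28 for *Zeb2* and 1.39 for *Zfyve16* in MEG and 1.46 for *Usp15* in ERY, all still called, and 0.996 for *Ep300*, which was no longer called. In HSPC *Zfyve16* (mean 5.83) and *Skil* (mean 5.78) were near background, each with 2 of 4 arrays above their own limit. *Cited2*, a coactivator-binding regulator, and *Nedd4l*, a ubiquitin ligase, were higher in MEG than in ERY by 2.56 and 2.13.

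SMAD target genes, chosen from general knowledge and not from binding data, were divided. Of 20 measured, 5 were called higher and 4 lower in MEG relative to HSPC, and 2 higher and 5 lower in ERY. *Id1* and *Id3*, targets of BMP signals, fell in both lineages. The change of *Id1* was -2.19 in MEG (adjusted p = 0.000211) and -2.18 in ERY (adjusted p = 0.00018), and that of *Id3* was -2.31 in ERY (adjusted p = 1.43e-05). In MEG *Id3* averaged 5.83, below background, against 8.66 in HSPC (adjusted p = 4.19e-06 for the difference of means), and was at least 4.85-fold lower. *Myc*, which TGF-beta represses in many cells, fell in MEG (-2.11, adjusted p = 0.00108) and in ERY (-2.47, adjusted p = 0.000298). *Atoh8*, a transcription factor gene, rose in MEG (2.09, adjusted p = 7.56e-05). *Gadd45b* was higher in MEG than in ERY by 3.53, and *Bhlhe40*, below background in ERY at 5.37 against 7.57 in MEG, was at least 2.99-fold higher. *Fn1*, encoding fibronectin, which the liver also makes, was lower in MEG than in ERY (-3.24). *Fn1* rose in ERY relative to HSPC (1.51, adjusted p = 0.0189) beside 12 of 14 hepatocyte markers, whose part was not tested, and lost its call without ERY array 1 (adjusted p = 0.0622), HSPC array 3 (0.0627), HSPC array 4 (0.0525) or HSPC arrays 3 and 4 (1.01, adjusted p = 0.187).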

How the data were processed

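RNA from 3 fetal liver populations was hybridised to 12 arrays. Array intensities were summarised with RMA by the authors, who deposited log2 values for each probe set. Its version and settings were not given in the sources used here. RMA equalises the distributions of the arrays, so a change shared by most genes would not be seen. Array medians lay between 5.99 and 6.25. Precision follows from the number of arrays. Groups and replicate numbers were taken from the sample titles. The methods call the replicates biological.

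The table held 34760 probe sets, of which 21640 had 1 gene symbol in the platform annotation, 1321 had several and 11799 were not listed there. For each of 19937 genes the probe set with the highest mean was used (954 genes had several), with no filter on low values. Gene identifiers of 19855 genes matched RefSeq. limma 3.58.1 in R 4.3.3 was fitted with 1 mean per population to all 12 arrays, with Benjamini-Hochberg adjustment over all genes. A gene counted as unchanged if its nominal P exceeded 0.05 or if it moved by less than 1.2-fold. Where a named gene's mean lay below the 95th percentile of olfactory receptor genes, each array was set to the higher of its value and its own such percentile, which gives a lower bound. An adjusted p printed beside such a bound belongs to the difference of means, and the bound itself was not tested. The limma fit was tested on simulated data with noise drawn independently for each gene and array. Those data did not carry the grading of the HSPC arrays. Figures were made with Python 3.11.15 and matplotlib 3.10.9.

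The members and lists were chosen with earlier results of these data known. Of each pathway list and comparison, the rule named up to 4 called genes with the largest change whose arrays did not overlap. For each called member it named the 3 genes with the highest Pearson r. Other genes given with values (*Thbs1* and *Eng* where arrays overlap, and marker genes) were chosen after their values were seen. Alternatives were other filters, normalizations, variance models, thresholds, a replicate block and leaving out arrays. Leaving out HSPC arrays 1 and 2, or 3 and 4, was added after the data were seen. Some listed genes are not reported here.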

Additional observations from a re-analysis of the deposited data

Results flagged for a closer look

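In 5 of the 30 sets of 4 arrays (10 members in 3 populations), the gap from the extreme array to its nearest neighbour, as a share of the range, exceeded Dixon's 95% limit for 4 values, and chance gives this in about 1 of 20 sets. The share was 0.857 for *Tgfbr2* in MEG (array 3, at 8.22) and 0.865 for *Smad4* in MEG (array 1, at 10.32). It was 0.854 for *Tgfbr3* in ERY (array 2, at 7.16), 0.878 for *Smad3* in ERY (array 2, at 7.41) and 0.859 for *Smad3* in HSPC (array 1, at 9.19). MEG array 3 also had the highest macrophage and mast cell marker medians in MEG, and the part of these cells was not tested. *Smad4* in MEG against ERY fell under 2-fold without MEG array 1 (0.94).

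For 4 members the change from HSPC differed between MEG and ERY by more than 2-fold at an FDR of 5%, which is the limma test of MEG against ERY, since the HSPC arrays cancel. The change in MEG minus that in ERY was 1.46 for *Smad3*, 1.19 for *Smad4*, 1.42 for *Tgfbr1* and -1.39 for *Tgfbr3*.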

How the results depend on the processing

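Over 25 alternatives and 30 changes of members, 709 of 750 values kept their direction and their side of the thresholds, 20 passed the thresholds anew, 11 no longer passed and 10 changed sign. Members called lower in ERY numbered 9 at a 1.5-fold threshold, and those called higher in MEG than in ERY 6. Leaving out single arrays gave 0 to 1 members higher and 2 to 3 lower in MEG against HSPC, and 2 to 3 higher in MEG than in ERY. The single member called higher in MEG against HSPC (1 without HSPC array 1, without HSPC arrays 1 and 2, with quantile normalization, ribosomal centring or array weights) was *Tgfbr1*. Ribosomal centring (53 genes) left 1 member lower in MEG and moved the median of all genes by 0.44 in MEG and 0.36 in ERY against HSPC and by 0.08 between MEG and ERY. The share of called genes that were higher was 75.1% with it in MEG (43.5% without) and 63.6% in ERY (40.5%). All 10 members stayed lower in ERY under it. Sign changes in MEG against HSPC were *Smad2* (-0.35 to 0.0226 on leaving out single arrays, positive without HSPC array 1, 0.23 without HSPC arrays 1 and 2, 0.25 with ribosomal centring, 0.32 with array weights), *Smad4* (0.22 without HSPC arrays 1 and 2, 0.26 with ribosomal centring) and *Smad7* (0.17 with ribosomal centring). In ERY *Tgfbr1* changed sign (-0.72 to 0.0583 on leaving out single arrays, positive without HSPC array 1, 0.45 without HSPC arrays 1 and 2, 0.33 with array weights). Pathway genes called lower in MEG against HSPC numbered 7 with ribosomal centring and 19 at 1.5-fold, those higher in ERY 4 without HSPC arrays 3 and 4, and those lower in MEG than in ERY 14 at 1.5-fold. *Gdf3* in MEG, *Bambi* in ERY and *Bmpr1a* between MEG and ERY each lost a call in some alternative. Causes were not tested. Replicate numbers gave no clear sign of pairing (4 of 12 same-numbered pairs correlated above 0.1 in their deviations from population means). With 4 arrays per population and no differently numbered pairs beside them, these correlations cannot exclude pairing. With the replicate block no member's call changed, *Tgfbr3* in ERY had an adjusted p of 0.0511, and *Tgfbr1* in MEG against ERY of 0.0420. Array background limits *Tgfbr3*, *Gdf3* and *Id3* in MEG, and *Smad1*, *Smad6* and *Smad7* on MEG array 4. It also limits *Smad1*, *Smurf1*, *Nrros*, *Zfyve16* and *Bhlhe40* in ERY, *Dcn*, *Zfyve16* and *Skil* in HSPC and *Bmpr1a* in all populations.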
